A study of Mus musculus with 18 samples.

Results

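Dexamethasone (Dex) was compared with its vehicle, balanced salt solution (BSS), in the RPE/choroid of the mouse eye 1 month after a single intravitreal injection. The comparison took the 3 arrays labelled DEX day 30 and the 3 labelled BSS day 30, 6 of the 18 arrays of the series, over all 45101 probe sets. The animals were male C57BL6/J mice, 2 months old by the labels and 6 to 8 weeks old by the study's methods. The Dex group received 10 μg and the BSS group vehicle alone, each in 1 μL. Of 4 animals per group, the 3 with the best RNA (RNA integrity number of at least 7) were hybridized, so each array stands for 1 animal. Retina was removed at dissection, and the sclera after the pigmented cells had been released from it. The methods hold it likely that most of the choroid stayed attached to the sclera. The share of choroid on each array was not tested. The values are log2 signals from which the median of each probe set over all 18 arrays had been subtracted. A value of 0 is therefore the series' median for that probe set, differences between arrays can be read, and levels cannot. For that reason the labelled tissue could not be checked by the presence of its markers, only by how they varied.

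The retinal pigment epithelium (RPE) is a single layer of pigmented cells that recycles visual pigment and clears shed photoreceptor tips. The choroid beneath it holds capillaries, larger vessels with smooth muscle and pericytes, melanocytes, fibroblasts and immune cells. Dex binds the glucocorticoid receptor (Nr3c1), which enters the nucleus and raises genes such as Fkbp5, Tsc22d3 and Per1. In the eye, steroids are used against inflammation and leaking vessels, and are known to alter the matrix of the outflow tissue. In a tissue piece such as this, fewer cells of a type and less RNA per cell cannot be told apart.

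The arrays differed in the signal of genes known from retina, lens and surface epithelium, and the source of that signal was not tested. The mean of 24 rod photoreceptor genes was 3.13, -0.42 and 2.99 on BSS replicates 1, 2 and 3, and -1.08, 0.07 and 2.87 on Dex replicates 1, 2 and 3. High rod signal was thus on 2 of the 3 BSS arrays and on 1 of the 3 Dex arrays. Lens crystallins stood highest on BSS replicate 3, at a mean of 2.74. Surface keratins stood highest on Dex replicate 2, at 2.62, where the corneal keratin Krt12 reached 9.20 against -0.41 to 0.12 on the other 5 arrays. The 5′ control probe sets of Actb and Gapdh, which fall when RNA is broken, were low on BSS replicate 2 (-0.75 and -0.83) and on Dex replicate 1 (-1.01 and -1.21), and lay between -0.12 and 0.92 on the other 4 arrays. RPE genes varied little: the mean of 19 was 0.08, 0.03 and -0.27 after BSS and -0.06, -0.09 and -0.04 after Dex.

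In limma, which steadies the variance of a probe set by borrowing from the rest, no probe set reached a Benjamini-Hochberg adjusted p below 0.05 for Dex against BSS. The smallest adjusted p was 0.999 over probe sets and 0.934 over the 18194 genes, so every gene named below has an adjusted p of at least 0.934. Before adjustment, 1910 probe sets (4.23%) had a p up to 0.05. At the study's thresholds, the same p with a fold change of 1.5 or more, there were 215 probe sets (0.477%), of which 85 stood higher and 130 lower after Dex, and at the level of genes there were 39 higher and 41 lower. The unpaired t-test that the methods name gave 13 at these thresholds, 818 with an unadjusted p up to 0.05, and 0 after adjustment. What follows therefore describes differences that were not called after adjustment. Separate animals are described, so that the p-values rest on the spread between animals. In limma that spread was pooled over the arrays of every group in the series, not taken from the compared arrays alone. For 1 probe set of Vax2os, the SD was 1.2 over the BSS arrays at 1 month and 0.15 over those at 1 week. Its unadjusted p was 0.00172 in limma and 0.0949 in the methods' t-test, whereas Hs3st3a1 had 0.0248 and 0.0241. An exact permutation test of 3 against 3 cannot go below p = 0.1.

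Of the 215 probe sets, 48 had all 3 Dex arrays outside the range of the 3 BSS arrays. They lay higher in 32 and lower in 16. Over all probe sets, the 3 Dex arrays lay above the 3 BSS arrays in 2.59% and below them in 2.25%. The 10 genes highest and the 10 lowest among the 48 were taken by rule, 1 probe set a gene, and because the rule asked for arrays that do not overlap, their separation is no further result. Under the methods' t-test 7 of these 20 still met the thresholds (Gm26588, Foxs1, Slc18a2, Hs3st3a1, Nsg2, Lyve1 and Pcdh17), and without BSS replicate 1 there were 13, with Slc18a2, Tfpi, Gm13889, Hs3st3a1, Fbn2, Opn1sw and Kcnd2 lost.

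**Figure D1:**
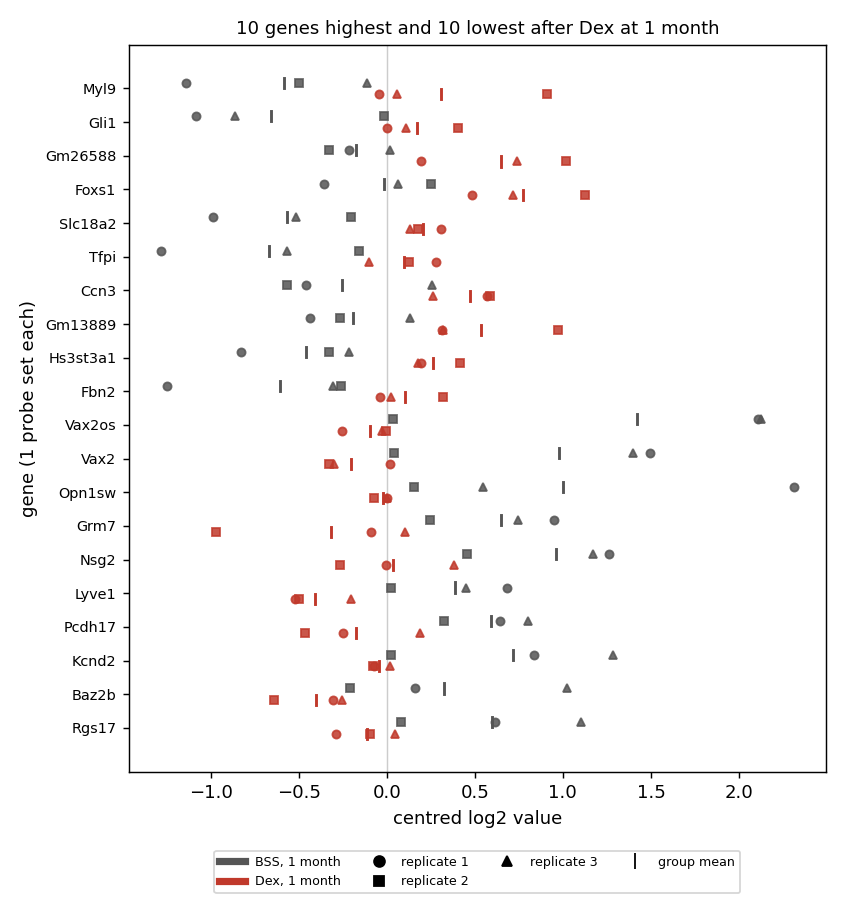
Centred log2 values (x axis) of the 10 genes highest and the 10 lowest after Dex at 1 month among probe sets at the study's thresholds whose arrays did not overlap (y axis). Grey marks BSS and red Dex, the symbol gives the replicate and the short line the mean of 3 arrays. The Dex values of Vax2os, Opn1sw and Kcnd2 sit close to 0, while BSS replicates 1 and 3 stand above BSS replicate 2.

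Of the 10 highest genes, Myl9 and Foxs1 are members of the smooth muscle and pericyte list. Myl9, the regulatory light chain of smooth muscle myosin, was at -1.14, -0.50 and -0.11 on the BSS arrays and at -0.04, 0.91 and 0.06 on the Dex arrays. All 3 Dex values were above all BSS values, with Dex replicate 2 far above the others. The log2 difference was 0.89 (SE 0.28), or 1.85-fold. Foxs1, a forkhead factor found in pericytes, was at -0.36, 0.25 and 0.06 after BSS and at 0.48, 1.12 and 0.72 after Dex. Dex was again above all BSS values, by 0.79 (SE 0.17).

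The smooth muscle and pericyte genes as a list stood higher after Dex. Of 17 measured members, 16 had a positive log2 difference, with a median of 0.42, where the median over all genes was 0.01 and 53.7% were positive. The study's thresholds were met by 5 members, all higher, where 0.214% of all genes met them in that direction. Beside Myl9 and Foxs1 these were Cnn1 (calponin, log2 difference 0.91), Myh11 (smooth muscle myosin heavy chain, 0.80) and Smtn (smoothelin, 0.75), the last named after its values were seen. The lists were chosen with earlier results of these data known, and the paper lists Foxs1 for Dex and Myl9 for TAA at 1 month. The share over all genes is therefore no test of this list. The 3 Dex arrays lay above the 3 BSS arrays in 6 members, and in 2.34% of all genes, including the pericyte receptor Pdgfrb (0.42) and the adhesion molecule Mcam (0.57). The mean of the list was -0.62, -0.11 and -0.23 on the BSS arrays and 0.14, 0.43 and 0.01 on the Dex arrays. These groups did not overlap, although the genes did not all follow it: Cnn1 was -0.74, -0.68 and -0.02 after BSS and 0.65, 0.98 and -0.33 after Dex, so that Dex replicate 3 lay within the BSS range. Desmin (Des) was the exception in sign, at -0.01. Without BSS replicate 1, the lowest array, the median was 0.29 and 3 members met the thresholds. Without Dex replicate 2 there were 3, without BSS replicate 2 there were 9, and under the methods' t-test there was 1. Of all 18194 genes, those higher at the thresholds then numbered 18, 264 and 5, and 6 without BSS replicate 1. With the rod signal of each array in the fit, the median was 0.37 and 5 members met them.

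**Figure D2:**
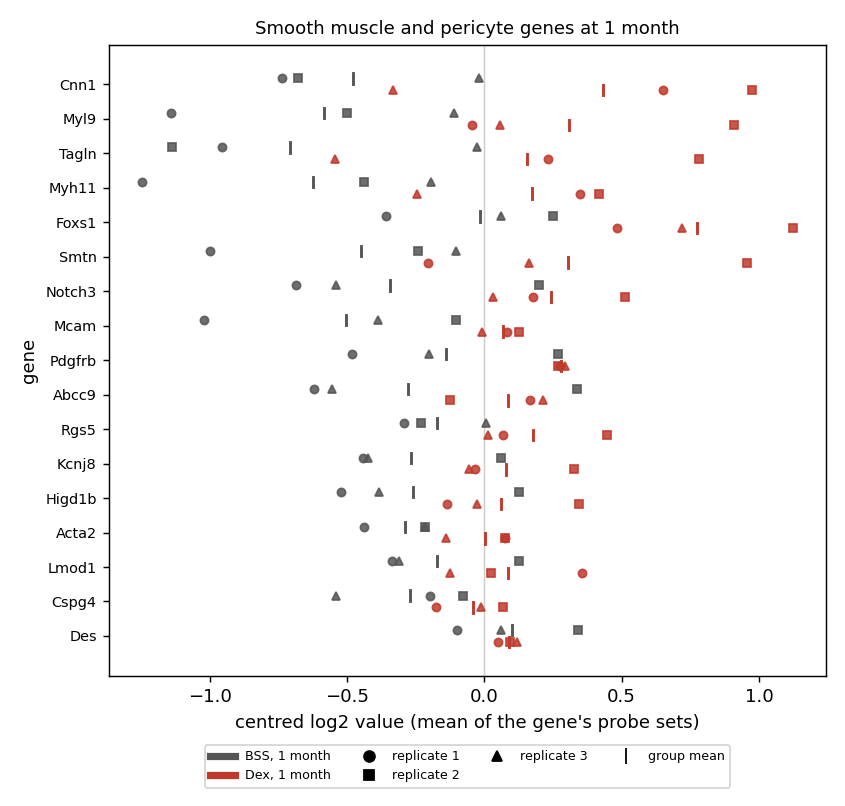
Centred log2 values (x axis, mean of the probe sets of a gene) of the 17 smooth muscle and pericyte genes (y axis, by size of the difference) on the 6 arrays at 1 month, with grey for BSS, red for Dex, symbols for replicates and short lines for means. The Dex mean lies to the right of the BSS mean in 16 of the 17 genes, and BSS replicate 1 is often the lowest array.

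Smooth muscle genes are known to be driven by serum response factor, which binds the CArG box (CC, then a run of A or T, then GG). The promoter of Myl9 is shown because Myl9 had the largest difference among the 10 higher genes. In RefSeq promoters of assembly GRCm38.p6, from 250 bases before each start, 12 of the list's genes were matched, and a CArG box was found in 1 of them, Myl9, and in 1.63% of all 32851 promoters. The box is in capitals, 161 bases before the start, in chr2:156775278-156775337 on the + strand. The match is a description of these letters only.
Myl9: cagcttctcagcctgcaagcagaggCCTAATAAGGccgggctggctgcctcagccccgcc

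Endothelial genes had the same sign and a similar median, but their largest differences were smaller. All 19 measured members of the blood endothelium list had a positive log2 difference, with a median of 0.40, and 0 met the study's thresholds. The largest were the angiopoietin co-receptor Tie1 (0.58), the fenestral diaphragm protein Plvap (0.57) and Ramp2 (0.55), a part of the adrenomedullin receptor. The list's mean was -0.71, 0.22 and -0.47 on the BSS arrays and 0.03, 0.06 and 0.15 on the Dex arrays, so that BSS replicate 2 lay above all 3 Dex arrays. The 2 low BSS arrays were those with high rod signal. With the rod signal in the fit the median was 0.29. Without BSS replicate 2 it was 0.66, with 12 members higher at the thresholds, as were 264 of all 18194 genes, against 39 with it. The median was 0.21 without BSS replicate 1, with 0 members at the thresholds. The part of retinal signal in this difference was not tested. Tfpi, the inhibitor of tissue factor made by endothelium, is given for 1 of its 4 probe sets. It was at -1.28, -0.16 and -0.57 after BSS and at 0.28, 0.13 and -0.10 after Dex. The Dex arrays lay above all BSS arrays, by 0.77 (SE 0.23), and by 0.46 without BSS replicate 1.

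Among growth factor genes of the VEGF and angiopoietin list, 14 of 18 were positive with a median of 0.20, which ranged from 0.09 to 0.41 when 1 array was left out (without BSS replicates 3 and 2). Vegfa itself, the main vessel growth factor, had a log2 difference of -0.28, Vegfb one of 0.23 and Vegfc one of 0.00. None of the 18 met the study's thresholds.

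Most matrix genes had positive differences. Of 19 collagens, 18 were positive with a median log2 difference of 0.38, but 0 met the thresholds. In 6 of them the 3 Dex arrays lay above the 3 BSS arrays, where 2.34% of all genes did so. Col1a1 and Col1a2, the chains of type I collagen, differed by 0.56 and 0.48, and Col3a1 by 0.23. The collagen mean was -0.64, -0.15 and -0.23 after BSS and -0.05, 0.02 and 0.02 after Dex, without overlap. The median was 0.21 without BSS replicate 1. Of 17 elastic fibre genes, 16 were positive with a median of 0.34, or 0.16 without BSS replicate 1. Fbn2, a fibrillin that forms the microfibrils of elastic fibres, was its only member at the thresholds. Its 2 probe sets differed by 0.70 and 0.69, and as a gene it was at -1.10, -0.42 and -0.32 after BSS and at -0.06, 0.24 and 0.07 after Dex. The Dex arrays lay above all BSS arrays. The 2 probe sets were at 0.38 and 0.53 without BSS replicate 1, and neither met the thresholds. Of 13 steroid glaucoma matrix genes, 11 were positive with a median of 0.13, which was 0.02 without Dex replicate 2 and 0.34 without BSS replicate 3. Its first members in order were fibronectin Fn1 (0.31), the secreted factor Angptl7 (0.61) and thrombospondin Thbs1 (0.14), none at the thresholds.

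Hs3st3a1, which adds the 3-O-sulfate to heparan sulfate chains, was at -0.83, -0.33 and -0.22 after BSS and at 0.19, 0.41 and 0.18 after Dex. The groups did not overlap and differed by 0.72 (SE 0.29). The thresholds were missed without BSS replicate 1 (0.53), without Dex replicate 2 and after quantile normalization. The other genes of heparan sulfate synthesis did not stand out: of 23 measured, 18 were positive, the median was 0.07, and Hs3st3a1 alone met the thresholds. Its near relative Hs3st3b1 differed by 0.05. Fam20a, a pseudokinase that assists the secretory kinase Fam20c, was at -0.37, 0.05 and -0.16 after BSS and at 0.49, 0.65 and 0.18 after Dex, a difference of 0.60 (SE 0.17) without overlap, and of 0.49 without BSS replicate 1.

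Slc18a2, the transporter that loads monoamines into vesicles, was at -0.99, -0.20 and -0.52 after BSS and at 0.31, 0.18 and 0.13 after Dex. The Dex arrays lay close together and above all BSS arrays, by 0.77 (SE 0.25), and by 0.57 without BSS replicate 1. No other gene of the 20 for monoamine handling met the thresholds. The list's median was -0.05, the synthesis enzymes Th and Ddc differed by 0.07 and -0.04, and the serotonin transporter Slc6a4 by 0.06. Mast cells also carry Slc18a2, and of 15 mast cell markers it alone met the thresholds. The median of the mast cell markers was 0.01, with 8 positive and 7 negative, and they ran from -0.61 to the 0.77 of Slc18a2. In limma, 2 of them, Slc18a2 included, were higher at an unadjusted p up to 0.05. The mast cell proteases Cpa3, Mcpt4 and Tpsb2, chosen outside the naming rule, differed by -0.18, -0.09 and 0.04. Which cells gave the Slc18a2 difference was not tested.

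Of the other genes among the 10 highest, Gli1, the transcription factor that reads out hedgehog signaling, was at -1.08, -0.02 and -0.86 after BSS and at 0.00, 0.41 and 0.11 after Dex. BSS replicate 2 lay just under the lowest Dex array. The difference was 0.83 (SE 0.26). The hedgehog-binding proteins Hhip and Boc, chosen after their values were seen, differed by 0.36 and 0.38. Ccn3, a secreted matrix-associated protein, differed by 0.73 on 1 probe set, and the predicted genes Gm26588 and Gm13889 by 0.83 and 0.73. In retinoic acid metabolism, the synthesis enzyme Aldh1a2 (0.70) and the degrading enzyme Cyp26b1 (0.67) met the thresholds, 2 of 15 measured, and the list's median was 0.13. In the endothelin and EGF receptor list, Edn3 (0.62) was the only one of 15. Aldh1a2, Cyp26b1 and Edn3 differed by 0.39, 0.31 and 0.41 without BSS replicate 1, none at the thresholds.

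Of 24 classic glucocorticoid targets measured, 19 were positive, with a median of 0.18, and 1 met the thresholds. The 3 Dex arrays lay above the 3 BSS arrays in 4 of them, where 2.34% of all genes did so. Their median was 0.10 without BSS replicate 1, and 0 then met the thresholds. Fkbp5, a chaperone that dampens the receptor, was at -0.31, -0.17 and -0.22 after BSS and at -0.14, 0.07 and -0.03 after Dex. Its groups did not overlap, but the difference was 0.20. Tsc22d3 differed by 0.13, Per1 by -0.00, and the receptor Nr3c1 by 0.17. The member at the thresholds was Pdk4, a kinase that turns off pyruvate use, at -0.82, -0.14 and 0.81 after BSS and 0.36, 1.12 and 0.90 after Dex. BSS replicate 3 lay within the Dex range, and the difference was 0.84 (SE 0.35). Without BSS replicate 1 it was 0.46, and Pdk4 also missed the thresholds without BSS replicate 2, Dex replicate 2 or Dex replicate 3.

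Of 20 core clock genes, 7 were positive, the median was -0.04 and 0 met the thresholds. Arntl, the clock activator Bmal1, differed by 0.04, its partner Clock by -0.05 and Npas2 by 0.25, and in Npas2 the Dex arrays at 0.56, 0.86 and 0.64 lay above the BSS arrays at 0.24, 0.52 and 0.53. The repressors Per2 and Per3 differed by -0.06 and 0.02, and Cry1 and Cry2 by -0.28 and -0.22. Of the 20, the 3 Dex arrays lay above the 3 BSS arrays in 1, Npas2, and below them in 1. Over all genes they lay above in 2.34%, and over all probe sets below in 2.25%.

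All 24 rod genes and 18 of 18 synaptic vesicle genes were negative, against 46.3% of all genes, with medians of -1.25 and -0.46, but 1 of each met the thresholds, where 0.225% of all genes met them in that direction. The rod median ranged from -0.43 (without Dex replicate 1) to -2.57 (without BSS replicate 2) when 1 array was left out, and the synaptic median from -0.34 to -0.71. Without BSS replicate 2, 8 rod and 10 synaptic genes met the thresholds, and without Dex replicate 3 there were 5 and 7. Calls rose over all 18194 genes too: 513 were lower without BSS replicate 2 and 315 without Dex replicate 3, against 41. Of 11 cone genes 10 were negative, with a median of -0.64, and Opn1sw and Kcne2 met the thresholds. That median ranged from -0.33 without BSS replicate 1, where 0 met them, to -1.25 without BSS replicate 2, where 6 did. Of 20 genes of inner retinal neurons 16 were negative, with a median of -0.33 and 0 at the thresholds. Snap25, a fusion protein of synaptic vesicles, was at 4.64, -0.64 and 5.13 after BSS and at -1.22, 0.00 and 3.86 after Dex, so that the groups overlapped and the high arrays were those with high rod signal. Its difference was -2.16 with a SE of 1.66. Nsg2, a neuronal protein of endosomal traffic, varied less: its first probe set was at 1.26, 0.45 and 1.17 after BSS and at -0.01, -0.27 and 0.38 after Dex. These did not overlap, with a difference of -0.93 (SE 0.24), whereas its other probe set overlapped, at -0.80. With the rod signal in the fit the first was -0.70.

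A set of retinal genes was near 0, the series' median, on every Dex array and on BSS replicate 2. Opn1sw, the opsin of short-wavelength cones, which in mice are densest in the ventral retina, was at 3.64, -0.03 and 1.95 after BSS and at -0.10, 0.27 and 0.13 after Dex as the mean of 2 probe sets. Vax2, a homeobox factor of the ventral retina, was at 1.495, 0.04 and 1.40 after BSS and at 0.02, -0.33 and -0.30 after Dex, a difference of -1.18 (SE 0.29). Vax2os, the transcript opposite Vax2, was at 2.11, 0.04 and 2.13 on 1 probe set, against -0.26, -0.00 and -0.03 after Dex (difference -1.52, SE 0.40). As the mean of its 2 probe sets the groups overlapped, with BSS replicate 2 at -0.01 and Dex replicate 2 at 0.22. On the series' arrays from 1 week, Opn1sw lay between -0.26 and 0.09 and Vax2 between -0.50 and 0.32. Of the 6 arrays compared here, only BSS replicates 1 and 3 had high values of Opn1sw, Vax2 and Vax2os.

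Dex replicate 3 had rod signal as high as those BSS arrays but values of those genes near 0. There the rod transducin Gnat1 stood at 3.89, against 4.09 and 3.99 on BSS replicates 1 and 3, and the middle-wavelength opsin Opn1mw at 3.11, against 2.03 and 2.38. The glutamate transporter Slc17a6, found in ganglion cells, was at 2.80, -0.38 and 3.07 after BSS and at -0.35, 0.14 and 0.17 after Dex, and the potassium channel subunit Kcne2 at 2.37, -0.38 and 1.96 against 0.06, 0.12 and 0.05. Opn1mw and Slc17a6 were chosen after their values were seen. With the rod signal in the fit, Vax2 differed by -1.06 and Slc17a6 by -1.22. The TAA arrays of the same day, given 25 μg of triamcinolone acetonide, were read for the same genes: Opn1sw was at 1.23, 2.00 and -0.20, and Vax2 at -0.00, 0.27 and 0.02. The source of this retinal signal was not tested.

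**Figure D3:**
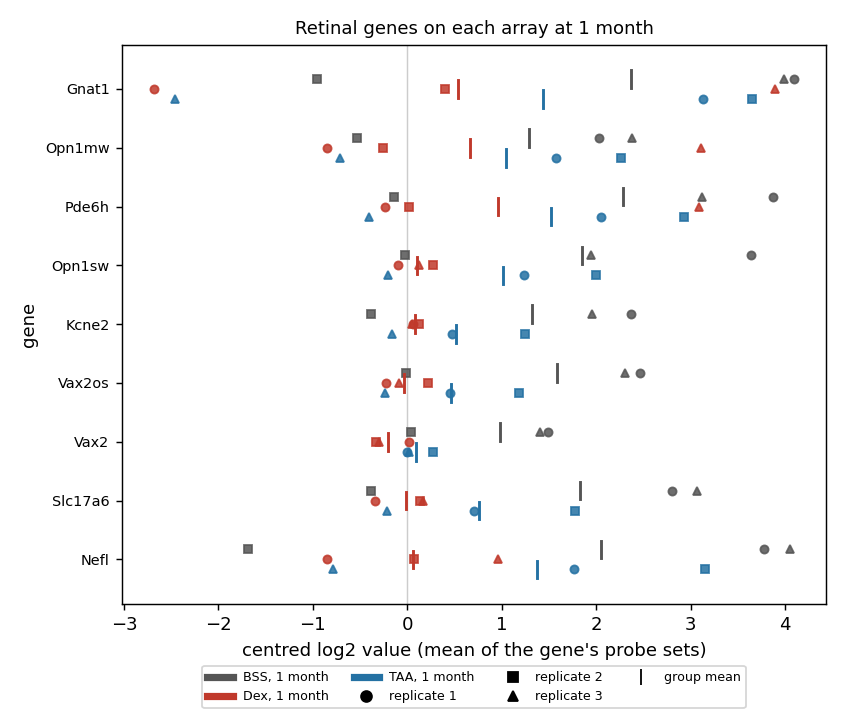
Centred log2 values (x axis, mean of the probe sets of a gene) of 9 retinal genes (y axis) on the 9 arrays at 1 month, with grey for BSS, red for Dex, blue for TAA, symbols for replicates and short lines for means. Dex replicate 3 stands with BSS replicates 1 and 3 in Gnat1, Opn1mw and Pde6h, and near 0 in Opn1sw, Kcne2, Vax2os, Vax2 and Slc17a6.

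In receptors for GABA and glutamate, 2 of 15 were positive, with a median of -0.20, and Grik1 alone met the thresholds. This kainate receptor subunit was at 0.87, 0.28 and -0.05 after BSS and at -0.06, -0.39 and -0.29 after Dex, with a difference of -0.61 (SE 0.17), or -0.36 without BSS replicate 1. The groups did not overlap for the gene, but did on each of its 2 probe sets (-0.87 and -0.36). Grm7, a metabotropic glutamate receptor, differed by -0.97 on 1 probe set and by -0.30 over all its probe sets. The potassium channel Kcnd2 (-0.76), the G-protein regulator Rgs17 (-0.71) and the chromatin reader Baz2b (-0.73) were also among the 10 lowest. Each value is of 1 probe set, of 4 for Kcnd2, 2 for Rgs17 and 5 for Baz2b.

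Lyve1, a hyaluronan receptor of lymphatic vessels and some macrophages, was at 0.68, 0.03 and 0.45 after BSS and at -0.52, -0.50 and -0.20 after Dex on 1 probe set, without overlap (difference -0.80, SE 0.25). Its other probe set differed by -0.17 and overlapped. Of 10 lymphatic and perivascular genes 5 were positive, and the lymphatic factor Prox1 differed by -0.59 and Flt4, the lymphatic VEGF receptor, by 0.18. Pcdh17, a protocadherin, differed by -0.76 and -0.72 on its 2 probe sets, without overlap on either. Macrophage and microglia genes were positive in 16 of 18, with a median of 0.31 and 0 at the thresholds. The median was 0.17 without BSS replicate 1, 0.19 without Dex replicate 2 and 0.18 with the rod signal in the fit. The acute phase gene Lcn2 was at -1.17, -1.66 and 4.62 after BSS and at -1.79, 0.83 and 4.89 after Dex, so that 1 array in each group was far above the rest, and its difference of 0.71 had a SE of 1.65.

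In the remaining lists, the lens filament protein Bfsp1 (-0.72) met the thresholds, as did Vax2 in the list of ocular patterning and Foxs1 in that of the Notch pathway. Lens crystallin genes had a median of -1.21, with BSS replicate 3 the highest array, and -0.26 without it. Surface keratin genes had one of -0.54, which turned to 0.21 without BSS replicate 3, 0.18 without Dex replicate 1 and 0.03 without Dex replicate 3. RPE and visual cycle genes had a median of -0.04, with Rpe65, the retinoid isomerase, at -0.06, and melanin genes one of 0.22 with 11 of 11 positive. Over the 47 lists, 19 of 684 measured genes met the thresholds, 12 higher and 7 lower, where 0.214% and 0.225% of all genes did so, and 32 lists had none. Without BSS replicate 1, 6 of the 19 still met them, and 3 did under the methods' t-test. The lists were chosen with earlier results known and hold genes that the paper names for this comparison. Setting the 19 beside the shares over all genes is therefore no test.

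**Figure D4:**
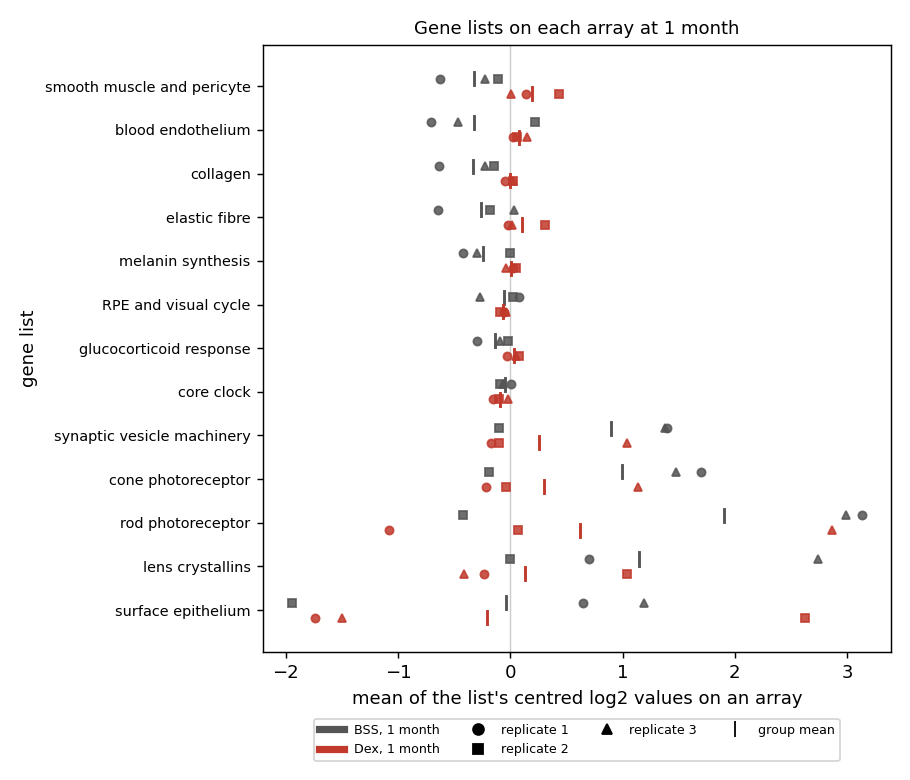
Mean of the centred log2 values of 13 gene lists (y axis) on each array at 1 month (x axis), with grey for BSS, red for Dex, symbols for replicates and short lines for means. The 3 Dex arrays lie above the 3 BSS arrays for smooth muscle and collagen, while rod, cone, synaptic, lens and surface lists vary far more between arrays of a group than vessel, RPE and clock lists.

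The effect of Dex at 1 month was set against that at 1 week, which has its own BSS arrays. No probe set passed adjustment in the test of the difference, with 364 at the study's thresholds (0.807%) and 1339 (2.97%) with an unadjusted p up to 0.05. Foxs1 differed from BSS by -0.15 at 1 week and by 0.79 at 1 month (difference of effects 0.94, SE 0.24). Ccn3 was at -0.39 and 0.73, Slc18a2 at -0.10 and 0.77, and Myl9 at 0.11 and 0.89. Vax2os was at 0.09 and -1.52. Lyve1 was at -0.48 and -0.80, and the Grik1 gene value at -0.47 and -0.61. The smooth muscle list had a median of -0.02 at 1 week, but blood endothelium had 0.29, collagen 0.24 and elastic fibre 0.24. The rod median was 1.555 at 1 week, against -1.25 at 1 month.

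TAA at 1 month shares its BSS arrays with Dex, and its dose differed, so the values are given side by side. Myl9 differed from BSS by 0.87 after TAA, Fbn2 by 0.73, Foxs1 by 0.44 and Slc18a2 by 0.35, and Vax2os by -1.05. List medians after TAA were 0.29 for smooth muscle, 0.25 for endothelium, 0.21 for collagen, 0.22 for elastic fibre and -0.75 for rods. In TAA against Dex directly, 0 probe sets passed adjustment, 52 met the thresholds (0.115%) and 861 (1.91%) had an unadjusted p up to 0.05. Of the 20 genes, Gm26588 had the largest difference between the steroids, -0.79 (95% interval -1.24 to -0.34), and Myl9 one of -0.02 (-0.61 to 0.57). For Foxs1 it was -0.35 (-0.71 to 0.02).

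**Figure D5:**
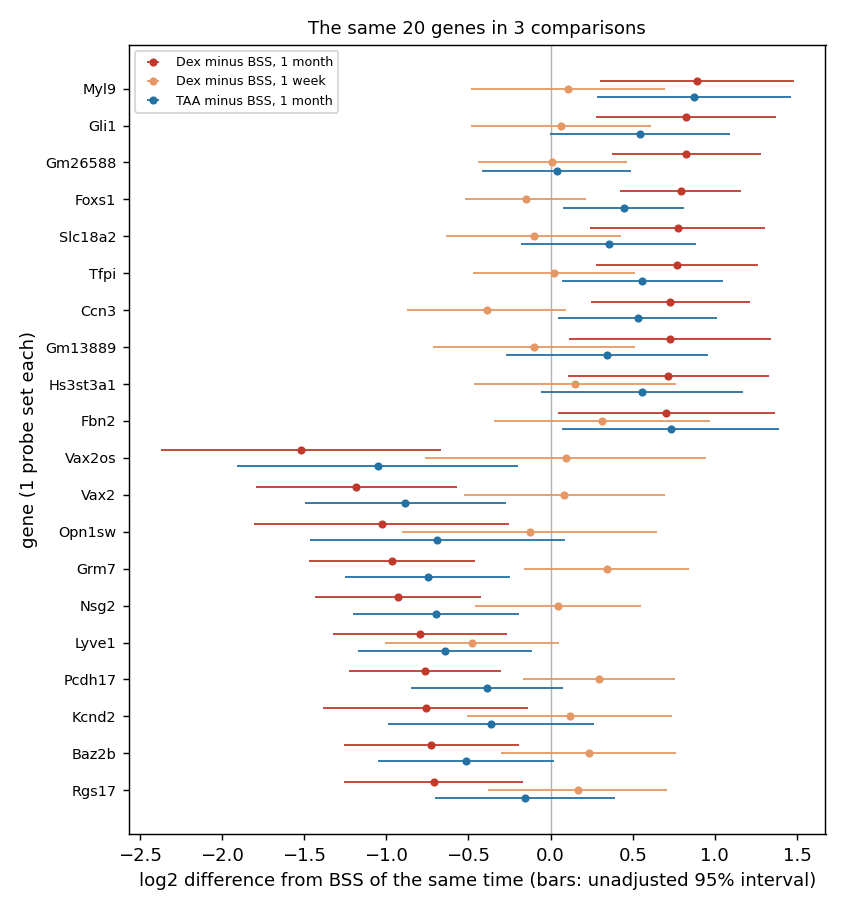
Log2 differences from BSS of the same time (x axis) of the 20 genes (y axis) for Dex at 1 month (red), Dex at 1 week (orange) and TAA at 1 month (blue), with bars for the unadjusted 95% interval. The 1 month comparisons share 3 BSS arrays. At 1 week every interval of the 20 genes includes 0.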

How the data were processed

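RPE/choroid RNA was measured on 18 Affymetrix arrays, 3 in each of 6 groups. The authors applied RMA in GeneSpring, with the median over the samples as baseline, and the deposited values are centred log2 values of 45101 probe sets. Labels and methods name different labelling kits. Centring removes levels, so no filter on weak signal was applied. Of the probe sets, 34958 had 1 gene symbol, 932 several and 9211 none, and a gene value is the mean of the probe sets of that gene alone (18194 genes).

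limma 3.58.1 in R 4.3.3 was fitted over all 18 arrays with 1 mean per group and 12 residual degrees of freedom, with two-sided tests and Benjamini-Hochberg adjustment over all features. The test was tested on simulated data. The members, the 47 lists and the tests were chosen with earlier results of these data known. Named genes were those the paper names for Dex at 1 month, the 10 largest differences each way at the study's thresholds with arrays that do not overlap, and up to 4 members of each list at the thresholds or else its first 3. Not every list member so named is printed. Other list members were named outside this rule with their values known, among them Tie1, Plvap, Ramp2, Pdgfrb, Mcam, Cpa3, Mcpt4 and Tpsb2. The symbol 9530006C21Rik was on no probe set in the annotation used, and that gene is not reported here. Alternatives covered the arrays in the fit, the test, scaling, probe sets, array weights, the replicate number, rod signal and each replicate left out. The number of arrays limits the precision.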

Additional observations from a re-analysis of the deposited data

Results flagged for a closer look

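For 2 probe sets of genes named above, every Dex array lay on one side of the BSS arrays at 1 week and every Dex array on the other side at 1 month. The share of all probe sets that did so is not given here. At 1 month alone, the Dex arrays lay above the BSS arrays in 2.59% of all probe sets and below them in 2.25%. For Grm7, the Dex arrays at 1 week were at 0.28, 0.30 and 0.09 and the BSS arrays at -0.21, 0.09 and -0.24, the nearest values of the groups being almost equal, while at 1 month Dex was lower. The difference of effects was -1.31 on the log2 scale (SE 0.33, adjusted p = 1.0 in limma). For 1 of the 2 probe sets of Pcdh17, the Dex arrays at 1 week were at 0.77, 0.48 and -0.03 and the BSS arrays at -0.79, -0.12 and -0.49, and at 1 month Dex differed from BSS by -0.72. The difference of effects was -1.59 (SE 0.37, adjusted p = 1.0 in limma). The other probe set of Pcdh17 differed from BSS by 0.30 at 1 week and -0.76 at 1 month. Neither difference passed adjustment.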

How the results depend on the processing

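After adjustment, 0 probe sets passed for Dex against BSS at 1 month under each alternative tried except 1: without BSS replicate 2, which had low rod signal, 41 passed, 13 higher and 28 lower, among them Vax2os, Vax2, Slc17a6 and the endothelial receptor Robo4. Leaving out 1 replicate thus gave 0 to 41. The count of 215 at the study's thresholds was 86 over only the 6 arrays, 116 over only the 9 arrays of day 30, 904 with array weights, 78 after quantile normalization, 132 with the rod signal in the fit and 13 by the methods' t-test. It ranged from 72 (without BSS replicate 1) to 1764 (without BSS replicate 2) when 1 replicate was left out, with 112 without Dex replicate 2 and 973 without Dex replicate 3. The split turned too: 214 of 272 were higher without BSS replicate 3 and 226 of 312 without Dex replicate 1, against 85 of 215. The cause was not tested. All of the 20 genes with the largest differences kept their sign under the 17 alternatives run for probe sets, but 13 of them missed the thresholds under the methods' t-test and 7 without BSS replicate 1. Without BSS replicate 1 the median of 30 of the 47 lists moved by over 1.5 times and that of 6 turned sign. Fbn2 and Kcnd2 each met the thresholds in 11 of them. The difference between 1 month and 1 week ranged from 0 to 1 probe sets after adjustment when 1 replicate was left out, with 1 without BSS replicate 2 at 1 month. TAA against Dex at 1 month gave 1 with the rod signal in the fit and 1 without BSS replicate 2.

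The replicate numbers do not pair the animals: same-numbered BSS and Dex arrays correlated at -0.334, -0.112 and 0.192 in their deviations from the group means. With the replicate number as a block, 0 probe sets passed adjustment and 201 met the thresholds.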

Other observations

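None of the genes in the immune lists that follow met the study's thresholds. Interferon-stimulated genes, which respond to viral and inflammatory signals, had a log2 median of 0.13 with 14 of 15 positive, which was 0.04 without BSS replicate 1 and 0.36 without BSS replicate 3. Complement genes had a median of 0.19 with 13 of 14 positive, and of 0.10 to 0.29 when 1 array was left out. MHC class II genes, which present antigen, had one of 0.12 with 6 of 6 positive, but of -0.01 without BSS replicate 1 and -0.08 without Dex replicate 2. Cytokines and chemokines had one of 0.07 with 14 of 22 positive, and of 0.01 to 0.11 when 1 array was left out. Lymphocyte and neutrophil markers had medians of 0.08 (0.01 to 0.19) and -0.07 (-0.20 to 0.00).

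Among the other lists with no gene at the thresholds, fibroblast and stroma genes had a median of 0.23 with 14 of 17 positive, matrix proteases and their inhibitors one of 0.21 with 15 of 17 positive, and genes of RPE phagocytosis, the uptake of shed photoreceptor tips, one of 0.15 with 10 of 13 positive. Without BSS replicate 1 these were 0.13, 0.06 and 0.08. Cholesterol synthesis genes had a median of -0.03, skeletal muscle genes one of 0.03, and genes of oxidative phosphorylation one of -0.02, and each was on either side of 0 depending on which array was left out.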
